A study of Homo sapiens with 8 samples.

Results

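RNA sequencing of the human myeloma cell line MM.1S was used to ask whether iron and the proteasome inhibitor bortezomib act on each gene independently, that is, whether the FeAc difference seen without bortezomib was also found in its presence. All 8 samples of the series entered, 2 in each of 4 groups collected at 12 h: vehicle, FeAc, bortezomib, and bortezomib plus FeAc. MM.1S is an established line derived from a patient with multiple myeloma, its genotype is given as wild type, and no group carried an engineered allele, so every group is a model of 1 line at 1 time. The labels give no doses and do not say that the samples of a group were separate cultures, although the study's methods call them biological replicates. The p-values therefore measure only the spread between these samples. The samples came in 2 deposited tables, 1 for each pair of groups without and with bortezomib, which were joined by gene identifier. Of 60671 genes 30694 were at 0 in every sample, and 10402 were kept because their mean reached 5 TPM in some group. TPM is a relative level per transcript length that has nearly the same sum in every sample, so the sequencing depth behind each value is unknown here. All 10 plasma cell markers examined were among the 10402, and of 26 markers of other blood and marrow cells 2 were, GNLY and HBB, each under 14 TPM.

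Iron enters most cells bound to transferrin through the receptor TFRC and is stored in ferritin. When cytosolic iron is high, TFRC mRNA is degraded and ferritin translation is released, while excess reactive iron promotes lipid peroxidation. Sterol synthesis is controlled in the endoplasmic reticulum, where INSIG proteins hold back the SCAP and SREBP complex until sterol falls, whereupon SREBP2 switches on the genes from acetyl-CoA to cholesterol. Bortezomib blocks the chymotrypsin-like activity of the proteasome. Myeloma cells, which make much secreted protein, answer with heat shock chaperones, ATF4 targets, heme oxygenase and new proteasome subunits, the last through the factor NFE2L1.

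The departure from additivity was defined for each gene on log2(TPM + 1) as the difference between bortezomib plus FeAc and bortezomib minus the difference between FeAc and vehicle. A departure of 0 means that FeAc moved the gene by the same factor with and without bortezomib, and a departure of 1 or -1 means a 2-fold gap. A positive value lies above additivity and a negative one below. Each departure was also recomputed without each of the 8 samples in turn, and the sample whose removal moved it furthest towards, or past, 0 is named here as the one on which it rests most. The 16 ways of taking 1 sample from each group were used to see whether the sign was shared.

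No gene could be called non-additive in these 8 samples. With limma, 0 of 10402 genes (0.0%) departed from additivity at an adjusted p under 0.05 and more than 1.5-fold. The lowest adjusted p was 0.982. At an unadjusted p under 0.05 there were 185 genes (1.78%), 53 above and 132 below additivity. About 5% would be expected if no gene departed, so this is no excess. The 2 differences behind the departure also gave no called gene, with 350 genes at an unadjusted p under 0.05 for FeAc against vehicle and 179 for bortezomib plus FeAc against bortezomib. Both counts are under 5% of the genes as well. In bulk RNA such as this, a change in the share of cells and a change in RNA per cell cannot be told apart. The median standard error of a departure was 0.30 and the 95% interval reached, at the median, 0.68 or 1.60-fold to each side of it, and the interval lay inside 2-fold in both directions for 6273 genes (60.3%), among them 6080 of 9402 protein-coding genes (64.7%).

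Across all genes the median departure was -0.12, and 6982 of 10402 genes lay below 0. This general shift depended on how the samples were scaled: with median-of-ratios scaling the median was 0.0048 and 5116 genes lay below 0. The values of gene groups are therefore read below against the median of all genes. Without overlap between the 2 samples of each group, FeAc was above vehicle for 2516 genes (24.2%) and below it for 1060 (10.2%), while bortezomib plus FeAc was above bortezomib for 725 genes (6.97%) and below it for 1285 (12.4%). Genes above in both comparisons numbered 183 (1.76%), genes above without and below with bortezomib 210 (2.02%), and genes below without and above with bortezomib 74 (0.711%). Separation of 2 samples from 2 also arises often without any effect, so these counts are descriptions. The 2 comparisons share no sample, and over the 10402 genes the FeAc differences without and with bortezomib had a Pearson's r of 0.05. Genes are not independent replicates, and this r is a description. Over protein-coding genes it was 0.05, and it moved to 0.28 when the first bortezomib plus FeAc sample was left out and to -0.18 when the second was.

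**Figure D1:**
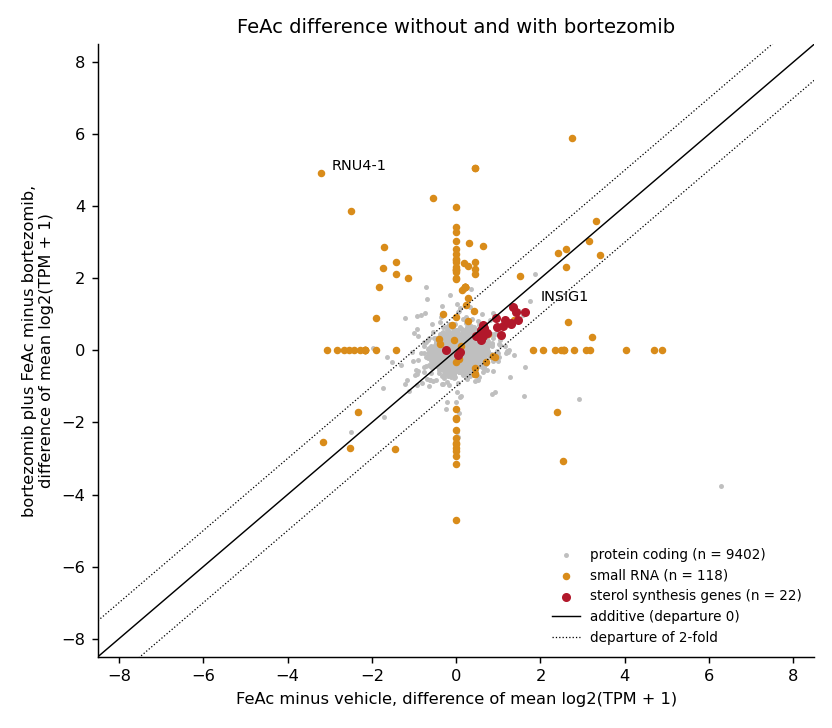
Each point is 1 gene, with the difference of mean log2(TPM + 1) between FeAc and vehicle on the x axis and between bortezomib plus FeAc and bortezomib on the y axis. Grey points are 9402 protein-coding genes, orange points 118 small RNA genes and red points 22 sterol synthesis genes. The solid line marks additivity and the dotted lines a 2-fold departure. Most red points lie to the upper right near the solid line, more of them below it than above it, whereas 95 of 118 orange points lie at or outside the dotted lines.

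The first bortezomib plus FeAc sample stood apart from the others. Its mitochondrially encoded mRNA made up 2.73% of the TPM, against 9.67% in the other sample of that group and 5.17% to 13.8% in the remaining 6. Its small RNA genes summed to 9156 TPM, against 4624 in the other sample of its group and 1206 to 3228 elsewhere. The 2 samples of the group correlated at r = 0.949 on log2(TPM + 1) over genes, and the other 3 pairs at 0.961 to 0.971. The median departure of all genes was -0.02 without the first bortezomib plus FeAc sample and -0.22 without the second. For this reason the median departures of gene groups below are given with and without each of these samples.

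Sterol synthesis genes were higher with FeAc in both settings, and how far they lay below additivity depended on 1 sample. The 13 genes from squalene to cholesterol had a median FeAc difference of 1.07 without bortezomib and of 0.62 with it. FeAc was above vehicle without overlap for 12 of 13, bortezomib plus FeAc was above bortezomib for 8 of 13, and 8 were above in both, where all genes gave 24.2%, 6.97% and 1.76%. All 13 departures were below 0, with a median of -0.32, and 2 of 13 lay above the median of all genes. With median-of-ratios scaling 10 of 13 were below 0 and the median was -0.18. Without the first bortezomib plus FeAc sample the median was -0.01 (all genes, -0.02), and without the second it was -0.52 (all genes, -0.22). Of the 13 genes, 10 rested most on that first sample. None of the 13 passed the test.

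FDFT1 (ENSG00000079459, chr8:11795573-11839309 in GRCh38) encodes squalene synthase, the first enzyme committed to sterols. Its level was 59.7 and 56.9 TPM with vehicle, 155 and 171 with FeAc, 72.4 and 69.6 with bortezomib, and 119 and 140 with bortezomib plus FeAc. FeAc samples were thus above their controls in both settings, but both combined samples fell short of the 198 TPM that additivity would give. The departure was -0.61 ± 0.21 (SE, n = 2 a group), it was negative in all 16 single-sample values, and it remained -0.50 without the first bortezomib plus FeAc sample, on which it rested most.

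LSS, lanosterol synthase, which closes the epoxide of squalene into the first sterol, depended far more on that sample. It stood at 31.0 and 34.4 TPM with vehicle, 71.7 and 67.1 with FeAc, 23.2 and 24.4 with bortezomib, and 21.3 and 49.2 with bortezomib plus FeAc. The first combined sample lay below both bortezomib samples and the second lay above them. The departure of -0.64 ± 0.45 (SE) went to -0.05 without the first combined sample and to -1.22 without the second.

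DHCR7, a reductase that acts on the sterol ring at the end of the pathway, behaved like LSS. Its level was 14.7 and 19.9 TPM with vehicle, 42.9 and 44.3 with FeAc, 11.4 and 11.5 with bortezomib, and 11.5 and 34.0 with bortezomib plus FeAc. The first combined sample was at the level of bortezomib alone and the second above the additive level of 29.6 TPM. The departure was -0.55 ± 0.57 (SE) over all samples and 0.19 without the first combined sample. In the same way SQLE, squalene epoxidase, went from -0.14 to 0.25. MSMO1, a demethylase of lanosterol intermediates, went from -0.35 to -0.18.

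The mevalonate pathway, which supplies the isoprenoid units, lay near additivity. Its 9 genes had a median FeAc difference of 0.64 without and 0.65 with bortezomib, 7 of 9 were above their controls without overlap in both settings (1.76% of all genes), and the median departure was -0.04. It was 0.07 without the first combined sample and -0.30 without the second. With median-of-ratios scaling the median turned to 0.10. IDI1, the isomerase of isoprenoid units, stood at 46.2 and 34.7 TPM with vehicle, 78.6 and 76.9 with FeAc, 38.9 and 36.4 with bortezomib, and 75.8 and 67.1 with the combination, a departure of -0.04 ± 0.24 (SE). HMGCS1, which makes HMG-CoA, departed by -0.44 ± 0.24 (SE) and by -0.24 without the first combined sample.

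INSIG1 (ENSG00000186480, chr7:155297776-155310235), the SREBP target and brake, was high in every sample that received FeAc. It stood at 69.5 and 75.3 TPM with vehicle, 248 and 242 with FeAc, 80.3 and 73.3 with bortezomib, and 166 and 236 with bortezomib plus FeAc. All 4 FeAc-treated samples lay far above their controls, and the second combined sample was near the additive level of 260 TPM. The departure was -0.39 ± 0.27 (SE), and -0.14 without the first combined sample.

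SREBF2 encodes the sterol-sensing transcription factor itself. It had 32.2 and 46.4 TPM with vehicle, 84.2 and 76.9 with FeAc, 43.8 and 41.9 with bortezomib, and 41.9 and 76.3 with the combination. In the combined group 1 sample was thus at the level of bortezomib alone and the other at that of FeAc alone. SREBF1, the relative that favours fatty acid genes, departed further, at -1.10 ± 0.64 (SE), and reached -0.31 without the first combined sample. Over the 10 genes of SREBP control the median departure was -0.39, against -0.00 without the first combined sample and -0.67 without the second. With median-of-ratios scaling it was -0.25.

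Fatty acid synthesis and desaturation genes had a median FeAc difference of 0.39 without bortezomib and of 0.08 with it. Of 12 members 9 were above vehicle with FeAc without overlap (24.2% of all genes) and 1 was above bortezomib in the combination (6.97%). The median departure was -0.37, it was -0.12 without the first combined sample and -0.67 without the second, and with median-of-ratios scaling it was -0.23. SCD, the stearoyl-CoA desaturase, went from -0.61 to 0.07 without the first combined sample. FADS1, the delta-5 desaturase, kept more of its departure, -0.97 ± 0.42 (SE) and then -0.57. ACSS2, which makes acetyl-CoA from acetate, departed by -1.21 ± 0.53 (SE) and rested most on the second bortezomib sample, whose 12.6 TPM stood against 5.38 in the first, leaving -0.66 without it. ELOVL6, the elongase of saturated fatty acids, lay on the other side at 2.12 ± 0.95 (SE): it had 24.4 and 15.9 TPM with vehicle, 10.2 and 6.11 with FeAc, 9.33 and 3.89 with bortezomib, and 28.4 and 4.99 with the combination. Its departure rested on the 28.4 TPM of the first combined sample and was 0.97 without it.

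**Figure D2:**
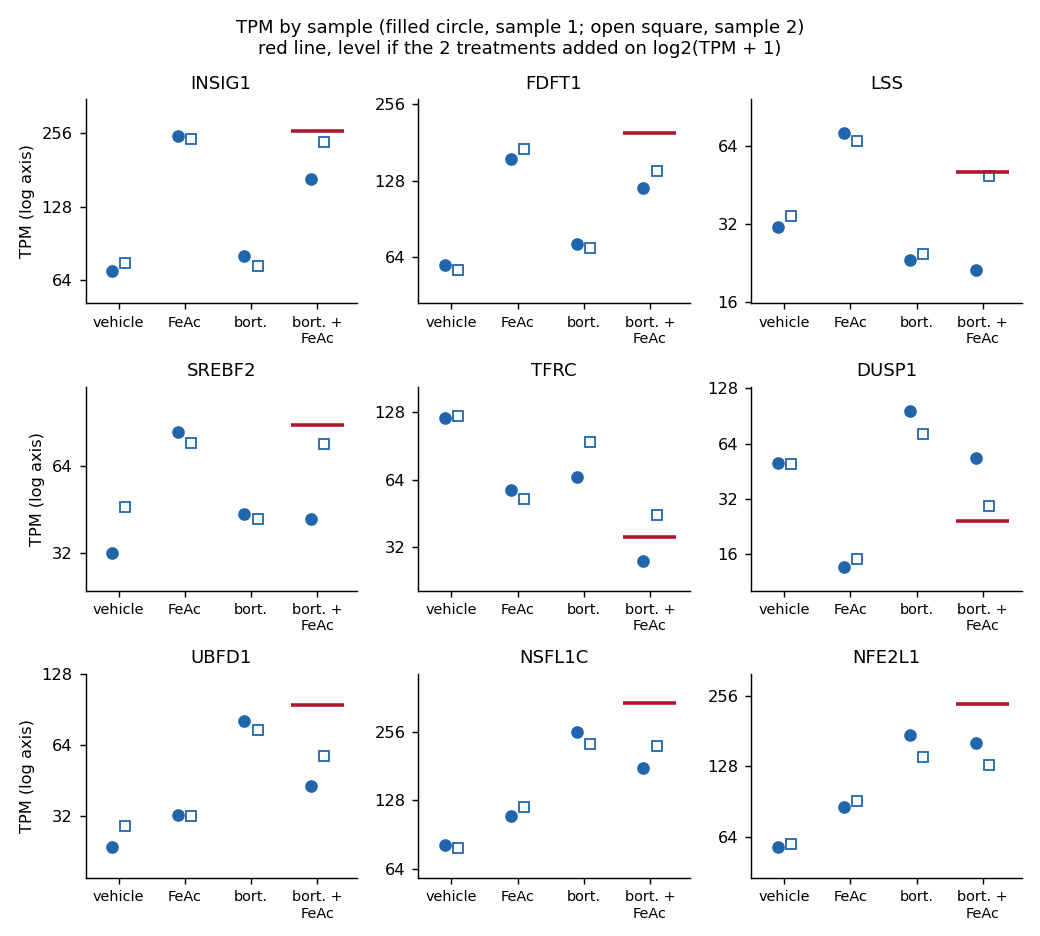
TPM on a log axis in every sample for 9 genes, with the first sample of each group as a filled circle and the second as an open square (bort., bortezomib). The red line marks the level that additivity on log2(TPM + 1) would give the combination. For INSIG1, LSS and SREBF2 the second combined sample lies near the line and the first below it, for TFRC the line falls between both, for DUSP1 both lie above it, and for FDFT1, UBFD1, NSFL1C and NFE2L1 both lie below it.

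Iron genes as a list lay near the median of all genes with all samples, and on either side of 0 without 1 of the combined samples. TFRC (ENSG00000072274, chr3:196027183-196082189), whose mRNA is the textbook sensor of cytosolic iron, had 120 and 122 TPM with vehicle, 57.4 and 52.6 with FeAc, 65.6 and 94.2 with bortezomib, and 27.8 and 44.5 with bortezomib plus FeAc. Both FeAc groups lay below their controls without overlap, and the departure was -0.01 ± 0.35 (SE), with 0.32 and -0.34 when the first and the second combined sample were left out. Its 95% interval, -0.81 to 0.78, reached past 1.5-fold on both sides. The ferritin heavy chain FTH1 departed by 0.27 ± 0.30 (SE) and the light chain FTL by -0.13 ± 0.41 (SE). Over the 13 genes of iron uptake, storage and export the median was -0.13, against -0.12 for all genes, and it was 0.0058 with median-of-ratios scaling. It was 0.03 without the first combined sample and -0.36 without the second, against -0.02 and -0.22 for all genes.

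HMOX1, heme oxygenase, which frees iron from heme, gave an uncertain value. It stood at 12.4 and 12.5 TPM with vehicle, 23.0 and 21.8 with FeAc, 544 and 320 with bortezomib, and 1663 and 339 with bortezomib plus FeAc. The combined samples differed widely, 1 of them above both bortezomib samples and the other between them. The departure of 0.05 ± 0.86 (SE) was -1.09 without the first combined sample and 1.20 without the second, so neither additivity nor a departure was resolved. Of the 18 genes of the HMOX1 and NRF2 group, which covers the antioxidant response, 14 were above vehicle with FeAc without overlap (24.2% of all genes) and 0 were above bortezomib in the combination (6.97%), with a median departure of -0.23 (all genes, -0.12), of -0.16 without the first and -0.19 without the second combined sample. With median-of-ratios scaling the median was -0.10.

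The 14 genes of lipid peroxidation and its defence had a median departure of -0.25 (all genes, -0.12), and of -0.13 with median-of-ratios scaling. It was -0.12 without the first combined sample and -0.46 without the second (all genes, -0.02 and -0.22). Among the genes that guard against lipid peroxidation, GPX4, the selenoenzyme that reduces lipid peroxides, departed by -0.07 ± 0.22 (SE), with a 95% interval of -0.56 to 0.43. AIFM2, the coenzyme Q reductase that acts beside GPX4, had 11.9 and 13.9 TPM with vehicle, 17.7 and 20.1 with FeAc, 52.3 and 48.4 with bortezomib, and 43.8 and 49.2 with the combination. FeAc was above vehicle, but the combined samples lay within or below the bortezomib range, and the departure of -0.63 ± 0.22 (SE) kept its sign in all 16 single-sample values, with -0.53 when the first vehicle sample, on which it rested most, was left out. DHODH, the mitochondrial dehydrogenase of pyrimidine synthesis that also reduces coenzyme Q, departed by -1.01 ± 0.49 (SE) and by -0.58 without the first combined sample. From the heme and iron-sulfur list, NFS1, the cysteine desulfurase that builds iron-sulfur clusters, was above additivity at 0.68 ± 0.25 (SE). It had 22.7 and 29.1 TPM with vehicle, 20.7 and 23.6 with FeAc, 14.1 and 17.8 with bortezomib and 21.6 and 23.1 with the combination. The departure kept 0.50 without the second vehicle sample. None of these passed the test.

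Among genes of protein degradation, 2 of 31 proteasome subunits and 2 of 13 ubiquitin, p97 and shuttle factors were below 0 in all 16 single-sample values, where 8.45% of all genes were. The 31 proteasome subunits as a group lay near additivity, with a median of -0.02, of -0.10 without the first and 0.01 without the second combined sample, and 26 of 31 intervals lay inside 2-fold. With median-of-ratios scaling the median was 0.12. The 13 ubiquitin, p97 and shuttle factors had a median of -0.21, of -0.30 without the first and -0.09 without the second combined sample, and of -0.08 with median-of-ratios scaling. NFE2L1 (ENSG00000082641, chr17:48048329-48061487), the factor that renews proteasome subunits, had 57.7 and 59.4 TPM with vehicle, 85.8 and 91.2 with FeAc, 175 and 140 with bortezomib, and 162 and 130 with bortezomib plus FeAc. FeAc samples were above vehicle, but the combined samples overlapped with bortezomib alone. Its departure was -0.70 ± 0.25 (SE) and remained -0.54 without the first bortezomib sample, on which it rested most.

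UBFD1 and NSFL1C, named after their values were seen, also lay below additivity. UBFD1 is a ubiquitin-family domain protein and NSFL1C, also called p47, a cofactor of the unfoldase p97. UBFD1 had 23.8 and 29.1 TPM with vehicle, 32.5 and 32.1 with FeAc, 80.8 and 74.3 with bortezomib, and 43.1 and 57.7 with the combination. FeAc samples lay above vehicle while the combined samples lay below bortezomib, so the 2 differences had opposite signs. The departure was -0.91 ± 0.26 (SE), which put the combination at 0.531 of the additive level, and it was -0.71 without the first combined sample. NSFL1C had 81.6 and 78.7 TPM with vehicle, 109 and 119 with FeAc, 256 and 227 with bortezomib, and 178 and 223 with the combination, a departure of -0.78 ± 0.24 (SE) and -0.62 without the first combined sample. NPLOC4, the p97 adaptor that binds ubiquitin chains, departed by -0.50 ± 0.26 (SE), and the proteasome lid subunits PSMD3 and PSMD11 by -0.53 each, with all 16 single-sample values below 0 for the 3 genes.

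Heat shock and ATF4 genes had medians near that of all genes, but their values changed widely with the combined sample used. HSPA1B, an inducible HSP70 that shares most of its sequence with HSPA1A, so that the split of reads between the pair is uncertain, had 50.1 and 43.8 TPM with vehicle, 43.9 and 48.0 with FeAc, 9422 and 6312 with bortezomib, and 12243 and 4484 with bortezomib plus FeAc. The combined samples lay on either side of both bortezomib samples, and the departure was -0.03 ± 0.59 (SE) with 0.70 when the second combined sample was left out. DNAJB1, an HSP40 partner, went from -0.35 to 0.54 and BAG3, the co-chaperone of aggregates, from -0.14 to 0.60 in the same way. The 12 HSP70 and HSP110 genes had a median of -0.05, of -0.23 without the first and 0.38 without the second combined sample. With median-of-ratios scaling it was 0.08, and that of the ATF4 list below was 0.0041. The 21 ATF4, amino acid and serine genes moved as well, from -0.13 to -0.61 without the first and to 0.18 without the second. DDIT3, the ATF4-induced factor CHOP, illustrated this with 8.92 and 8.41 TPM with vehicle, 9.46 and 9.98 with FeAc, 47.2 and 40.1 with bortezomib, and 86.6 and 31.5 with the combination. Within that list SLC7A5, the large neutral amino acid transporter, departed by -0.58 ± 0.28 (SE) and by -0.32 without the first vehicle sample. Bortezomib and vehicle come from different tables, so these levels are set side by side with no test.

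Of 18 immediate-early genes 6 were below vehicle with FeAc without overlap (10.2% of all genes) and 4 were below bortezomib in the combination (12.4%). DUSP1, a phosphatase that switches off MAP kinases, had 50.4 and 49.9 TPM with vehicle, 13.8 and 15 with FeAc, 96.6 and 72.1 with bortezomib, and 53.4 and 29.4 with the combination. Both FeAc groups lay below their controls without overlap. On log2(TPM + 1) the gap was smaller with bortezomib, while in TPM itself it was larger, and the departure did not pass the test. The departure was 0.68 ± 0.37 (SE), and 0.26 without the first combined sample. FOS, the AP-1 subunit, went from 0.62 to -0.24 without the second combined sample and its partner JUN from 0.74 to -0.07 without the first. MT1X, a metallothionein that buffers zinc and copper, had 11.6 TPM in the first combined sample and 3.89 in the second, and its departure of 1.26 ± 0.66 (SE) was 0.57 without the first. SLC30A1, the zinc exporter that answers to the same metal sensor, stayed at -0.10 ± 0.19 (SE), with a 95% interval of -0.53 to 0.33. CD40, a receptor of the TNF family on B-lineage cells, departed by -0.04 ± 0.24 (SE).

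Mitochondrially encoded mRNA and cytosolic ribosomal protein mRNA moved with the first combined sample. All 13 mitochondrial mRNAs departed below 0, with a median of -0.58, and all 13 rested most on that sample, in which each was lower than in the other combined sample. Without it the median was 0.24, and without the other it was -1.42. MT-ND6, a complex I subunit, had 719 and 1614 TPM with vehicle, 1846 and 2121 with FeAc, 1962 and 2223 with bortezomib, and 718 and 2774 with the combination. The vehicle samples differed as well. The departure of -1.44 ± 0.82 (SE) was -0.47 without the first combined sample. Of 34 ribosomal protein genes 30 were above 0 with a median of 0.15, all 34 were higher in the first combined sample than in the second, and the median was -0.05 without it and 0.44 without the second. With median-of-ratios scaling these medians were -0.44 for mitochondrial and 0.29 for ribosomal protein mRNA, over all 8 samples. Removing the mitochondrially encoded genes and rescaling gave a median of all genes of -0.15, against -0.12. For the squalene to cholesterol genes it was -0.35, against -0.32. Beyond this rescaling, the part of either group in the other departures was not tested. The 10 plasma cell markers and the 8 myeloma driver genes had medians of -0.35 and -0.36, against 0.01 and 0.02 without the first combined sample and -0.61 and -0.74 without the second. With median-of-ratios scaling both medians were -0.22, and 7 of 10 and 5 of 8 genes lay below 0.

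**Figure D3:**
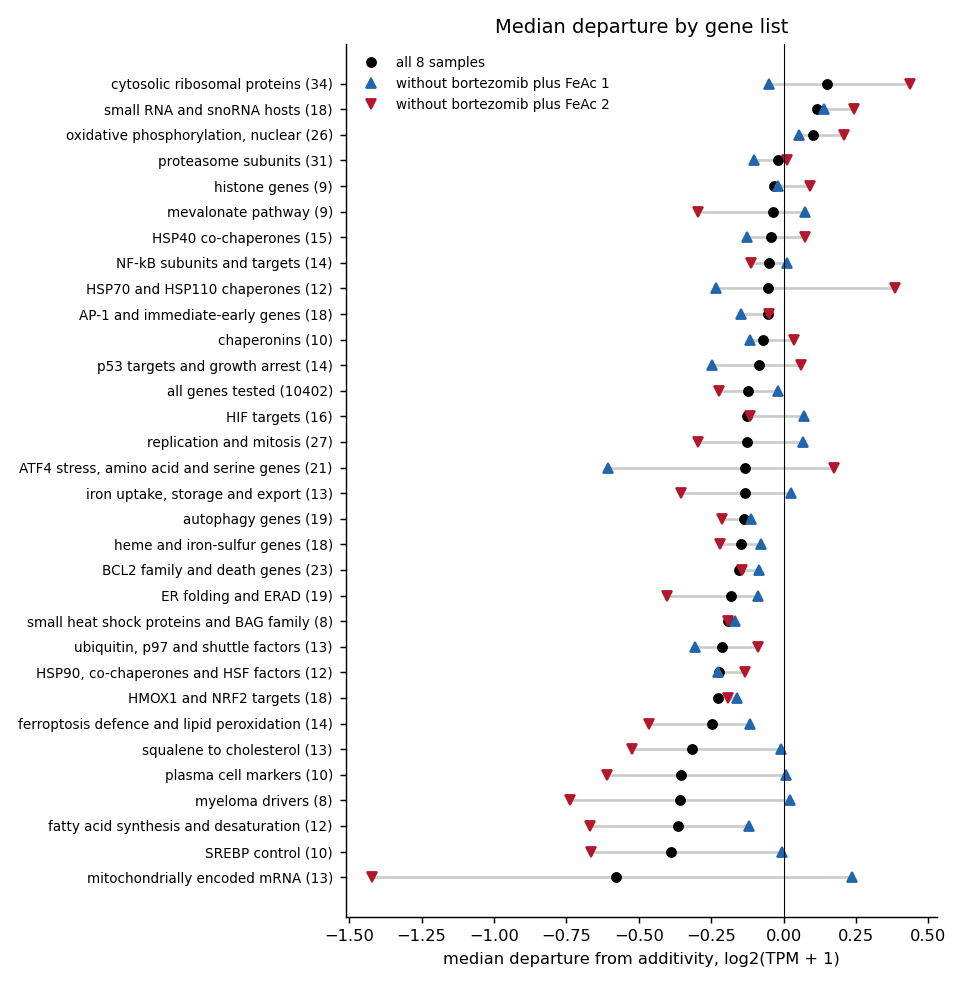
Median departure on log2(TPM + 1) for each gene list with at least 8 genes tested (number in brackets) and for all genes, with all 8 samples (black circles), without the first (blue) and without the second (red) bortezomib plus FeAc sample. Mitochondrially encoded mRNA spans -1.42 to 0.24, the ATF4 list -0.61 to 0.18, and the squalene to cholesterol list -0.52 to -0.01. For the sterol, fatty acid and mitochondrial lists the red triangle lies to the left, and for the HSP70 and ATF4 lists to the right.

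Departures of at least 2-fold numbered 298, 141 above additivity (1.36% of genes) and 157 below (1.51%). They fell unevenly on the gene types. Protein-coding genes gave 75 of 9402 (0.798%), 26 above and 49 below. Small RNA genes, which the annotation types as snRNA, snoRNA, rRNA, miRNA and the like, gave 95 of 118 (80.5%), pseudogenes 67 of 321 (20.9%) and the remaining types 61 of 561 (10.9%). The small RNA genes past 2-fold had a median exon length of 145 bases, and 80 of the 95 were listed at 0 in some sample. Over all types 161 of the 298 were at 0 in some sample, where 210 of the 10402 genes were. A gene at 0 outside 1 group enters only through the group where it is high, and must then depart by at least 2-fold. These shares therefore follow in part from the filter and are not a result about gene types. The median size of a departure was 2.17 for small RNA genes and 0.20 for protein-coding genes. Over all genes 264 departures (2.54%) were above 0 and 879 (8.45%) below 0 in all 16 single-sample values, and among the 298 these were 41 and 48.

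U1 small nuclear RNA, which recognises the 5′ splice site, shows how a single RNA was divided between gene entries. Of its genes 8 (RNU1-1, RNU1-2, RNU1-3, RNU1-4, RNU1-27P, RNU1-28P, RNVU1-18 and RNVU1-29) have one and the same 164-base sequence in the annotation (GENCODE 29 on GRCh38). It is printed here as RNU1-2 (chr1:16895980-16896143, plus strand), with bases 3 to 11, which pair with the 5′ splice site, in capitals.
U1: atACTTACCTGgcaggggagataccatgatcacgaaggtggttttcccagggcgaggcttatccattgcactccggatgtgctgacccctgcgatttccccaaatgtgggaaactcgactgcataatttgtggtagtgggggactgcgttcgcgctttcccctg
In any one sample each of these entries held either one common value or 0. In the first combined sample, for example, 5 entries held 57.2 TPM and 3 held 0. The departures of entries with the same sequence nevertheless ran from -0.93 for RNVU1-18 to 4.61 for RNU1-2 and RNU1-28P, and they rested on 4 different samples. Summed over the 8 entries, U1 stood at 20.4 and 67.9 TPM with vehicle, 73.4 and 29.7 with FeAc, 108 and 12.0 with bortezomib, and 286 and 326 with the combination. Both combined samples were above all others, and the summed departure was 2.71, or 1.17 without the second bortezomib sample.

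U4 small nuclear RNA, which holds U6 inactive before splicing begins, gave the largest positive departure of all. Its genes RNU4-1 (chr12:120293097-120293237, minus strand) and RNU4-2 (chr12:120291763-120291903, minus strand) are 97.2% identical and differ at 4 bases, in capitals below: C37T, G88A, C99A and C113T, with the base of RNU4-1 first and positions counted from the 5′ end.
RNU4-1: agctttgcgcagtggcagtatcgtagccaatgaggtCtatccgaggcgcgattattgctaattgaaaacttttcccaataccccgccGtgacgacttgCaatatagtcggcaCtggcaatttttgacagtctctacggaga
RNU4-2: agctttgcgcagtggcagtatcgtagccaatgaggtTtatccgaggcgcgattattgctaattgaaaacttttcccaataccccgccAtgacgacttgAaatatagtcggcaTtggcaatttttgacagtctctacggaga
RNU4-1 was listed at 83.7 TPM in the first vehicle sample, at 32.8 and 25.8 in the combined samples and at 0 in the other 5. Its departure of 8.11 rested most on that vehicle sample and was 4.91 without it. Additivity on log2(TPM + 1) would put its combination at -0.89 TPM, which no level can reach, as FeAc and bortezomib were at 0. The size of this departure is thus partly set by the floor at 0. RNU4-2 was listed at 44.5 TPM in the first FeAc sample, at 131 and 25.8 in the combined samples and at 0 in the other 5, and its departure of 3.14 was 0.39 without the second FeAc sample. The combined samples were the only ones in which both genes were listed above 0, and the sum of both departed by 6.99, or by 3.79 without the first vehicle sample. Reads of near-identical copies cannot be assigned with certainty, so the split between the entries is uncertain.

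SNORD22, a box C/D small nucleolar RNA made from the introns of the host gene SNHG1, has 2 entries of different sequence in the files, both on the minus strand of chromosome 11. The first lies at chr11:62852910-62853035 (ENSG00000277194) and the second at chr11:62854161-62854285 (ENSG00000278527), and they are shown because one rests on a single sample and the other on both samples of a group.
SNORD22, ENSG00000277194: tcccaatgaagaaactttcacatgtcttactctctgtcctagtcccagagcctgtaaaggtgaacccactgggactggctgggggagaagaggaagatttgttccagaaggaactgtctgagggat
SNORD22, ENSG00000278527: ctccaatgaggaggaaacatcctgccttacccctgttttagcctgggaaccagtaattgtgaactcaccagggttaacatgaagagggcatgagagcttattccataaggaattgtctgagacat
The first was listed at 41.4 TPM in the second bortezomib sample and at 0 in the other 7, and its departure of -2.70 was 0 without that sample. The second was listed at 24.6 and 33.6 TPM in the FeAc samples and at 0 in the other 6, and its departure of -4.89 was -4.68 without the second FeAc sample. The second entry was thus seen in both samples of 1 group and in no other. It passed the filter only through that group, so a large departure followed from the filter. Groups at 0 in both samples add no spread to the fit, so the spread is understated. The adjusted p of the second entry with limma was 0.982, and 0.0167 when the filter was lowered to a group mean of 1 TPM. Neither value is support for a departure. Over the alternatives the adjusted p of this entry from limma was lowest at that 0.0167.

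RMRP, the RNA of the RNase MRP ribonucleoprotein, was listed above 0 in every sample. One of its entries (ENSG00000277027) had 19.1 and 18.6 TPM with vehicle, 23.4 and 22.9 with FeAc, 13.3 and 11.2 with bortezomib, and 106 and 40.8 with bortezomib plus FeAc. Both combined samples were above every other sample. The departure was 2.06, and 1.38 without the first combined sample. A second, overlapping entry (ENSG00000269900) was at 0 in 6 samples and at 61.2 and 10.3 TPM in the combined ones, with a departure of 4.73. It passed the filter only through the combined group, so a large positive departure followed from the filter. Summed over both entries, RMRP departed by 2.54, or by 1.70 without the first combined sample. Other small RNAs were listed in a single sample of 8, so that their departure was 0 without it: RNA5S2, a 5S ribosomal RNA gene, at 667 TPM in the first FeAc sample (-4.69), RNU5E-1, of the U5 family, at 249 in the second combined sample (3.98), RNU4ATAC, of the minor spliceosome, at 115 in the first combined sample (3.43), and SNORA6 at 69.6 in the second vehicle sample (3.07). SNORA55 was likewise listed at 79.1 TPM in the first bortezomib sample alone (-3.16).

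The protein-coding genes in the rest of this part of the results, other than HFM1 and SLC2A1, were named after their values were seen. HFM1, a helicase of meiotic recombination, had the largest departure of any gene, -10.04 ± 1.95 (SE). It was at 0.02 and 0.03 TPM with vehicle, 36.8 and 168 with FeAc, 47.9 and 129 with bortezomib, and 32.2 and 0.05 with bortezomib plus FeAc. It was near 0 in 3 samples and high in 5, which included 1 of the combined samples, and without the second combined sample the departure was -7.55. Additivity on log2(TPM + 1) would put the combination at 6226 TPM, because FeAc and bortezomib are both set against vehicle levels near 0. PLXNB2, a receptor for semaphorins, lay furthest above additivity among the 15 genes plotted next, at 1.48 ± 0.36 (SE). It had 19.4 and 35.0 TPM with vehicle, 13.5 and 11.8 with FeAc, 8.82 and 8.79 with bortezomib, and 11.6 and 14 with the combination. FeAc samples were below vehicle and combined samples above bortezomib, and the departure was 1.07 without the second vehicle sample.

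PRMT5, the symmetric arginine methyltransferase, had 49.6 and 42.2 TPM with vehicle, 136 and 83.0 with FeAc, 45.1 and 52.8 with bortezomib, and 39.5 and 59.7 with the combination. FeAc was above vehicle but the combined samples straddled bortezomib, and the departure of -1.20 ± 0.38 (SE) was -0.85 without the first FeAc sample. MED26, a subunit of the Mediator complex, had 6.05 and 6.15 TPM with vehicle, 12.2 and 11.5 with FeAc, 9.43 and 11.5 with bortezomib, and 6.87 and 11.4 with the combination, a departure of -1.06 ± 0.33 (SE) and -0.74 without the first combined sample. SV2C, a synaptic vesicle glycoprotein, departed by -1.23 ± 0.34 (SE) and by -0.91 without the second FeAc sample. SLC2A1, the glucose transporter GLUT1, departed by -1.01 ± 0.45 (SE) and by -0.45 without the first combined sample. LXN, latexin, a carboxypeptidase inhibitor, was above additivity at 1.04 ± 0.32 (SE) and kept 0.82 without the first combined sample.

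**Figure D4:**
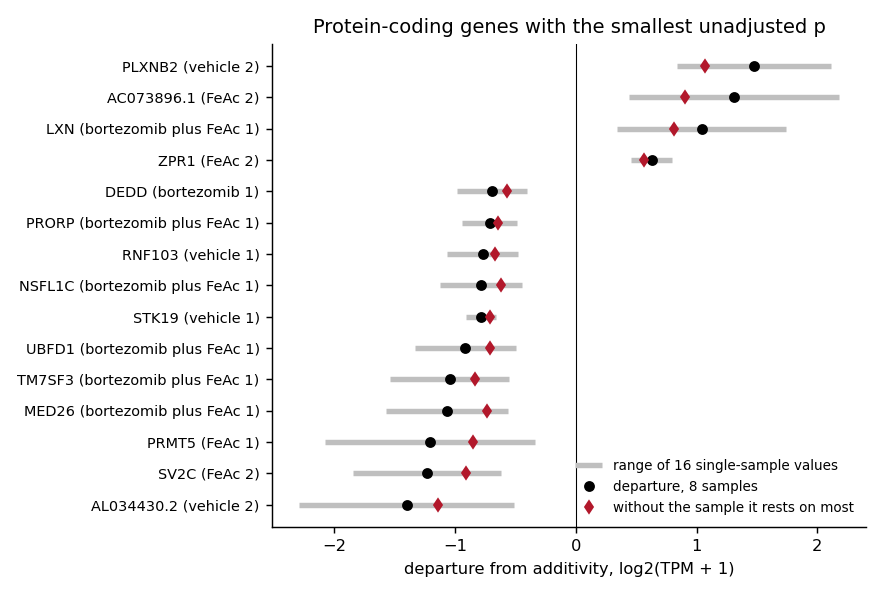
Departure on log2(TPM + 1) for the 15 protein-coding genes of smallest unadjusted p, HFM1 left out for scale. Black circles use all 8 samples, grey bars span the 16 single-sample values, and red diamonds leave out the sample named in brackets, on which the departure rests most. No bar crosses 0, which follows largely from picking the genes by p in these same samples and is no separate support. The red diamond of PLXNB2 is at 1.07 and that of PRMT5 at -0.85.

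Other protein-coding departures came from a single sample. NFIC, a nuclear factor I protein, had 12.7 TPM in the first vehicle sample and 0.35 to 1.84 in the other 7, and its departure went from 1.46 to -0.18 without it. TSHR, the thyrotropin receptor, had 27.3 TPM in the first bortezomib sample and at most 0.31 elsewhere, and SMC1B, a meiotic cohesin subunit, had 24.2 TPM in that same sample and at most 0.42 elsewhere, so that -2.46 and -2.27 became -0.07 and -0.00. Both were thus high in 1 sample and near 0 in the other 7. FHIT, a diadenosine triphosphate hydrolase, rested on 31.9 TPM in the second bortezomib sample, with 2.09 to 8.98 in the rest, and went from -2.05 to -0.35. LDLRAD4 rested on 14.7 TPM in the first combined sample, with at most 5.11 elsewhere, and went from 1.58 to 0.07. RSPH3, a radial spoke protein of cilia, rested on 19.1 TPM in the second combined sample, with at most 2.41 elsewhere, and went from 1.36 to 0.08. CLEC2B, a lectin-like receptor, rested on 21 TPM in the first FeAc sample, with at most 3.56 elsewhere, and went from -1.5 to 0.14.

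Counted over the 298 departures of at least 2-fold, the first bortezomib plus FeAc sample was the one on which most rested. It was the driving sample for 64 (21.5%), and each of the other 7 for 32 to 36. Among the 75 protein-coding departures it drove 21 (28.0%), the first bortezomib sample 13, the first vehicle sample 12, and each of the remaining 5 drove 5 or 6. Of the 298, 127 stayed over 1.5-fold whichever sample was left out, 36 of these protein coding, 140 fell under 1.5-fold or turned sign without exactly 1 sample, and 31 did so without each of several samples. The first combined sample alone decided 31 of the 140 and each of the others 12 to 19. Leaving out a sample could also add departures: protein-coding genes past 2-fold numbered 337 without the second combined sample and 189 without the second vehicle sample, against 75 with all samples and 63 to 120 without any other. Without the first combined sample there were 80.

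**Figure D5:**
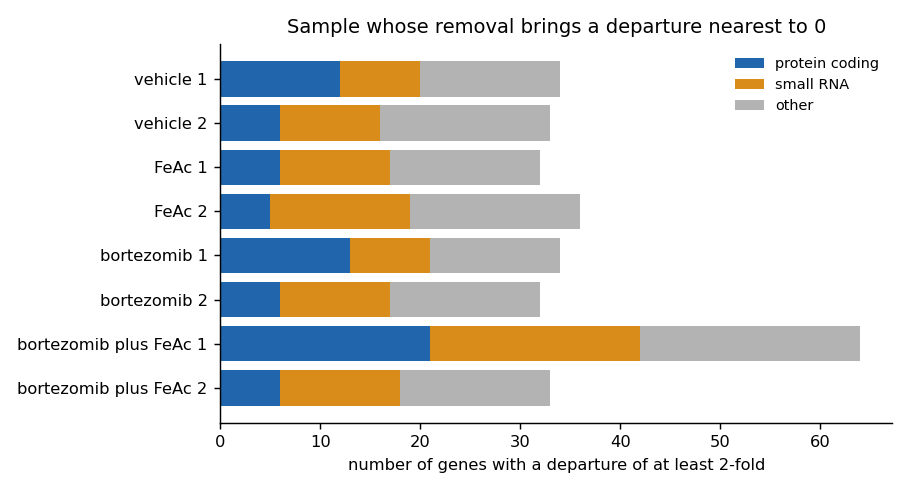
Number of genes, among 298 with a departure of at least 2-fold, that rest most on each of the 8 samples, by gene type (protein coding, small RNA, other). The first bortezomib plus FeAc sample holds 64 of them, 21 protein coding, and each other sample between 32 and 36.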

How the data were processed

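RNA was taken from MM.1S cells after 12 h in 4 groups of 2 samples. The deposited tables hold 1 value per gene and sample; the headers name no unit, and TPM was read from column sums of 994968 to 996780. The submitters' notes name HISAT2, StringTie, RSEM, DESeq2, edgeR and GRCh38.p13 with no role or version, so how the authors made the TPM values before deposit is given only in part. TPM keep no read depth. The authors' own comparison columns (fold changes, p-values, calls, group means) were not used, and 0 further columns of sample values were found. Gene types and positions came from GENCODE 29, which held 96.3% of the identifiers and 10354 of the 10402 tested.

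Levels were taken as log2(TPM + 1), where a fold change understates that of low genes. R 4.3.3 with limma 3.58.1 (trend, 4 residual degrees of freedom, all 8 samples in 1 fit, Benjamini-Hochberg adjustment over 10402 genes) gave differences, standard errors, 95% intervals and adjusted p, two-sided. A call needed an adjusted p under 0.05 and over 1.5-fold. The test was tried on simulated data. Genes named were the 12 largest departures each way of one sign in all 16 single-sample values, up to 2 per sample that rest on it alone, 3 per list of smallest p over 33 lists, and 26 fixed genes, of which the text describes a part. The members, lists and genes were chosen with earlier results of these data known. Replicate numbers were not used to pair the samples in the main fit. Alternatives covered pseudocount, filter, scaling, weights, threshold, replicate block, copies summed and each sample left out. Some of the genes that this rule names are not reported here.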

Additional observations from a re-analysis of the deposited data

Results flagged for a closer look

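In 284 of 10402 genes every FeAc sample lay on one side of vehicle and every bortezomib plus FeAc sample on the other side of bortezomib. None of them passed limma's test of the difference between these effects (lowest adjusted p over all genes 0.982). Separation of so few samples arises often without any effect, so this order alone is no evidence of opposite effects. Of the named genes 31 were among these 284, and they follow with their departures on log2(TPM + 1). Below vehicle with FeAc and above bortezomib in the combination were the entries AL137060.5 (6.346), PSLNR (4.596), SNRPCP10 (3.34) and AC025262.2 (3.286), as well as KDM3A (0.3321), a histone H3K9 demethylase. Of these, AL137060.5 was at 113 and 89.6 TPM with vehicle, 29.6 and 9.71 with FeAc, 87.7 and 0 with bortezomib, and 195 and 93.8 with the combination. For PSLNR, SNRPCP10 and AC025262.2 the additive level was -0.87, -0.39 and -0.52 TPM. No level can lie below 0, so the floor sets part of these 3 departures. KDM3A was at 23.9 and 22.6 TPM with vehicle, 20.5 and 21.3 with FeAc, 20.4 and 23.5 with bortezomib, and 24.8 and 25.1 with the combination, so that a small departure rested on small gaps.

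The opposite order held for HFM1 (-10.04), AC245033.3 (-4.928), AC015871.8 (-3.941) and AC006252.1 (-2.937). It also held, as for 210 of all genes (2.02%), for these members of the gene lists: DERL1 (-0.5495), a channel of endoplasmic reticulum degradation, DNAJC3 (-0.3294), a co-chaperone of the endoplasmic reticulum, FKBP4 (-0.3279), an HSP90 co-chaperone, and TCP1 (-0.31), a chaperonin subunit. GCH1 (-0.495), the first enzyme of tetrahydrobiopterin synthesis, and GLRX5 (-0.2941), a carrier of iron-sulfur clusters, did the same. DERL1 was at 52.9 and 67.7 TPM with vehicle, 80.4 and 74.2 with FeAc, 80.4 and 89.4 with bortezomib, and 74.9 and 73.9 with the combination, and its departure was -0.37 without the first vehicle sample. GCH1 was at 4.49 and 3.63 TPM with vehicle, 5.38 and 4.95 with FeAc, 7.91 and 6.98 with bortezomib, and 6.53 and 6.10 with the combination.

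The remaining genes were protein coding and were named after their values were seen. Below vehicle with FeAc and above bortezomib in the combination were ZRANB3 (2.104), AL355987.3 (1.881), PLXNB2 (1.477), AC073896.1 (1.313), HEATR5A (1.297), LXN (1.042) and ZPR1 (0.6275). ZRANB3, an enzyme that remodels stalled replication forks, was at 1.37 and 2.54 TPM with vehicle, 0.68 and 0.93 with FeAc, 0.99 and 0.64 with bortezomib, and 1.43 and 8.59 with the combination. The second combined sample lay far above every other sample, and it alone carried the gene past the filter of 5 TPM. The opposite order held for SYCE1L (-2.087), PTPRD (-1.276), SV2C (-1.233), TM7SF3 (-1.042), UBFD1 (-0.9139), STK19 (-0.7871), NSFL1C (-0.784), RNF103 (-0.7696) and PRORP (-0.7124). STK19, which takes part in transcription-coupled repair, was at 6.72 and 7.57 TPM with vehicle, 10.7 and 11 with FeAc, 10.8 and 10.5 with bortezomib, and 8.68 and 8.89 with the combination.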

How the results depend on the processing

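The count of 0 called departures was the same with a pseudocount of 0.1, no filter, median-of-ratios scaling, mitochondrially encoded genes removed, array weights, an adjusted p under 0.1 and, chosen after seeing the data, only protein-coding genes that averaged 5 TPM or more over the 8 samples. With the filter at a group mean of 1 TPM there was 1 called gene below 0 (SNORD22, ENSG00000278527, at 0 outside the FeAc group). By unadjusted p under 0.05 with 1.5-fold there were 47 above and 109 below. Without 1 sample the count ran from 0 to 4 above and from 0 to 3 below, all of them small RNA, RNA5S or pseudogene entries or RMRP, with the lone sample of a group assumed to vary like the other groups: RNU4-1 above without the second vehicle sample, RNA5S2, RNA5S3 and AL137798.3 below without the second FeAc sample, RNU5E-1 and SNORD118 above without the first combined sample, and both RMRP entries, RNU4ATAC and RNA5SP145 above without the second. The cause was not tested. For FeAc against vehicle, 0 called genes above became 2 with a pseudocount of 0.1, 1 with the filter at 1 TPM, 5 (and 5 below) with no filter, 4 with array weights, 4 at an adjusted p under 0.1, 135 (and 46 below) by unadjusted p, 3 (and 1 below) with only the 2 groups fitted, 3 for the protein-coding genes, and 0 to 9 above and 0 to 4 below without 1 sample. For bortezomib plus FeAc against bortezomib, 0 became 6 above and 11 below with no filter, 57 and 44 by unadjusted p, and 0 to 14 above and 0 to 1 below without 1 sample. Departures of at least 2-fold went from 141 above and 157 below to 305 and 395 with the filter at 1 TPM, and without 1 sample to 134 to 459 below, the highest without the second combined sample and 302 without the second vehicle sample. Among 206 named genes 30 turned sign without some 1 sample, 5 of the 89 of at least 2-fold among them, and 8 turned sign under another setting, none of these of 2-fold. Without depth, whether a listed 0 is a missing RNA cannot be told.

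Same-numbered samples deviated with r = -0.17 between vehicle and FeAc and r = 0.062 between bortezomib and bortezomib plus FeAc. The largest r was 0.228, between vehicle and bortezomib plus FeAc. These values gave no clear sign of pairing by number, but they cannot show how the samples were set up. With the replicate block across the 4 groups or within each table the called departures stayed at 0 above and 0 below. A replicate block with the numbers crossed in the vehicle and FeAc table, chosen after seeing the data, gave 2 genes above for bortezomib plus FeAc against bortezomib and 0 departures.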
